A study of Mus musculus with 50 samples.

Results

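Activity-regulated immediate early genes were measured in the hippocampus of wild-type and transgenic mice on Agilent 2-color oligonucleotide arrays. The list holds 37 genes, given by name, and 36 of them had at least 1 probe among the 34526 genes and unnamed probes of the array. Dusp5, a MAP kinase phosphatase, was the gene not found. The 36 genes had 51 probes, of which 48 were well above background in all 20 channels and none was below it throughout, and no probe was filtered out. For 10 genes several probes were averaged.

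The transgenic (TG) mice over-expressed DCLK-short, a kinase splice form of the doublecortin-like gene Dclk1, on a C57/BL6j background, and the wild-type (WT) mice were C57/BL6j. All mice were males that were housed alone before tissue collection, and no treatment is described. Their age and the promoter of the transgene are not given in the sources used here. RNA came from both dissected hippocampi of a mouse, so fewer cells of a type and less RNA per cell cannot be told apart. Each of 10 arrays carried 1 WT and 1 TG mouse, and each of the 10 mice (WT1, WT3 to WT6 and TG1 to TG5) was on 2 arrays, once in Cy3 and once in Cy5. TG carried Cy5 on arrays 1 to 5 and Cy3 on arrays 6 to 10. The 5 arrays of each orientation also came from a slide lot of their own, so dye orientation and lot cannot be told apart.

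Immediate early genes are switched on within minutes of strong synaptic input, before any new protein is made. Calcium and MAP kinase signals act on factors such as CREB and SRF at their promoters, and many of the products are themselves transcription factors that drive a later wave of genes. Others, Arc and Homer1 among them, act at the synapse, and their expression in the hippocampus is widely used as a record of recent neuronal activity.

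Start-site windows were searched for such elements for the 4 genes that passed the threshold (Arc, Fos, Dusp6 and Ptgs2). Elements outside a window are not seen, so the lack of a match does not mean that a gene has no such element nearby. RefSeq windows on GRCm38.p6, from 250 bases before to 50 after the start, were at hand for 28 of the 36 genes, among them Fos (chr12:85473640-85473939, plus strand), Dusp6 (chr10:99262981-99263280, plus strand) and Ptgs2 (chr1:150099781-150100080, plus strand). Arc had none. Capitals mark every match, on either strand, to the full CRE (TGACGTCA), its TGACG part, the AP-1 site (TGAGTCA), the EGR site (GCGGGGGCG or GCGTGGGCG), the CArG box bound by SRF, and TATAAA.
Fos: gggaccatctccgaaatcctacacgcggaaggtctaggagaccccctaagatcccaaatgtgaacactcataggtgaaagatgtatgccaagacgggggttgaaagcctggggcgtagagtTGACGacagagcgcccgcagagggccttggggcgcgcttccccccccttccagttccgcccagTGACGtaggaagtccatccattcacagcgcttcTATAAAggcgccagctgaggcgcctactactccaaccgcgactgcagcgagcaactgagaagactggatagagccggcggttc
Dusp6: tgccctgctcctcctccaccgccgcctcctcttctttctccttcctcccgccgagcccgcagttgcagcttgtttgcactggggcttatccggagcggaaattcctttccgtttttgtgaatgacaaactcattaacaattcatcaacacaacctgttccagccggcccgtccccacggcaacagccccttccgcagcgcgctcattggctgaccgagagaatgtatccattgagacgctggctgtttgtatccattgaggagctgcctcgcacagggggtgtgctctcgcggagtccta
Ptgs2: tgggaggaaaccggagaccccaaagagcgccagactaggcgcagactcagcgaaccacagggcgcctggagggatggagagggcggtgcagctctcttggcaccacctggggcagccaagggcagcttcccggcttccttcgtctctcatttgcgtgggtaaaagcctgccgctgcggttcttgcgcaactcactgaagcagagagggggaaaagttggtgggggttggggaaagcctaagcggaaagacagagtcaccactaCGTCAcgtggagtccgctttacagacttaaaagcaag
The Fos window held TGACG at -129 and at -66 and TATAAA at -33, and the Ptgs2 window held TGACG on the minus strand at 14. The Dusp6 window held no match. TGACG was found in windows of 21 of the 29 listed genes with a window (72.4%) and in 20.8% of all 32851 windows. The full CRE, which contains it, was found in 4 of the 29 genes (13.8%; Btg2, Dusp1, Maff and Plk2) and in 1.79% of all windows. The EGR site was found in 5 genes (17.2%; all windows 3.47%), the CArG box in 2 (6.90%; 1.63%), TATAAA in 6 (20.7%; 13.6%) and the AP-1 site in 0 (all windows 5.20%). A gene may have several windows. A match is a description of letters and not of binding.

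The direction of every Agilent ratio is given as labelled, and these labels are in doubt. Exchanging arrays 1 to 5 with arrays 6 to 10 turns the sign of every ratio and leaves its size and its p value in the reported fit unchanged. Tmem254a, which encodes a small transmembrane protein, was named as the check and was measured on Agilent and on ABI, a 1-color platform. Its Agilent ratio was among the most extreme (lowest of all genes -0.997). Its ABI p value is thus for a gene of large difference and not for one drawn without regard to it. On Agilent its log2 ratio of TG over WT was -0.99 ± 0.049 (SE, n = 10 arrays) and lay between -1.16 and -0.63, below 0 on each array. On ABI its raw signal was between 7000 and 10670 in 5 WT mice and between 24260 and 30370 in 5 TG mice, so the groups did not overlap and TG was the higher. After centring each ABI array on its median, the log2 difference was 1.84 (exact permutation test, two-sided p = 0.00794, the smallest that 5 against 5 mice allow). The platforms therefore gave opposite directions by their labels. Dclk1 itself, the gene of the transgene, was at -0.068 ± 0.032 on Agilent (SE, n = 10; limma, FDR 0.273) and below 0 on 7 arrays, and so was not called in either direction. Whether its probes lie in the DCLK-short transcript is not given in the sources used here. Among arrays that share a mouse as labelled, deviations from the dye mean correlated by 0.0784 on average over all genes, and among arrays that share a mouse after the exchange by 0.287 (10 pairs each). A correlation of arrays that share a mouse, fitted over all genes, was 0.0781 as labelled and 0.178 after the exchange. The Cy3 and Cy5 levels of a gene over the 10 mice correlated by a median of 0.131 as labelled and 0.124 after the exchange over all genes. Over the immediate early genes these medians were 0.192 and 0.125, so this last measure was not higher after the exchange. The study gives Arc the direction opposite to these labels, on Agilent, on each of its other platforms and by qRT-PCR. The qRT-PCR difference of Arc did not reach significance in the study. Of the immediate early genes, ABI identifiers named Jun alone, whose log2 difference there was -0.020 (exact permutation test, two-sided p = 0.905, n = 5 and 5).

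**Figure D1:**
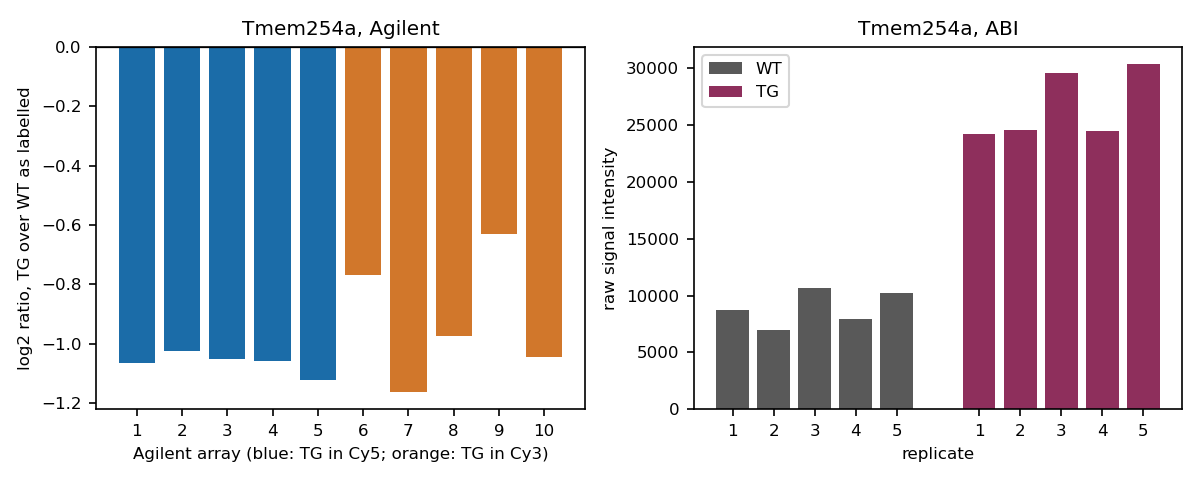
Tmem254a on both platforms. Left: log2 ratio of TG over WT as labelled on each of 10 Agilent arrays (bars). Right: raw ABI signal intensity of each of 5 WT and 5 TG mice (bars). The Agilent ratios lie between -1.16 and -0.63, whereas all TG mice lie above all WT mice on ABI.

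By the labels, 4 of the 36 immediate early genes (11.1%) differed between TG and WT at an FDR of 0.1, against 8.19% of all 34526 genes. The arrays share mice, and only Arc passed with the arrays of a mouse as a replicate block and no gene of the list with 1 value per mouse. Arc, Fos and Dusp6 were higher in TG (3 genes; 4.05% of all genes were higher) and Ptgs2 was lower (1 gene; 4.14% of all genes were lower). The share of called genes was thus near the background. At an unadjusted p under 0.05 there were 13 genes (36.1%; all genes 19.1%), of which 11 were higher in TG (30.6%; all genes 9.33%) and 2 were lower (5.56%; all genes 9.73%). Differences were small. The median log2 ratio of the 36 genes was 0.022 and that of all genes 0.0034, with 23 ratios above 0 and 13 below. The genes share mice and arrays and are not independent replicates.

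**Figure D2:**
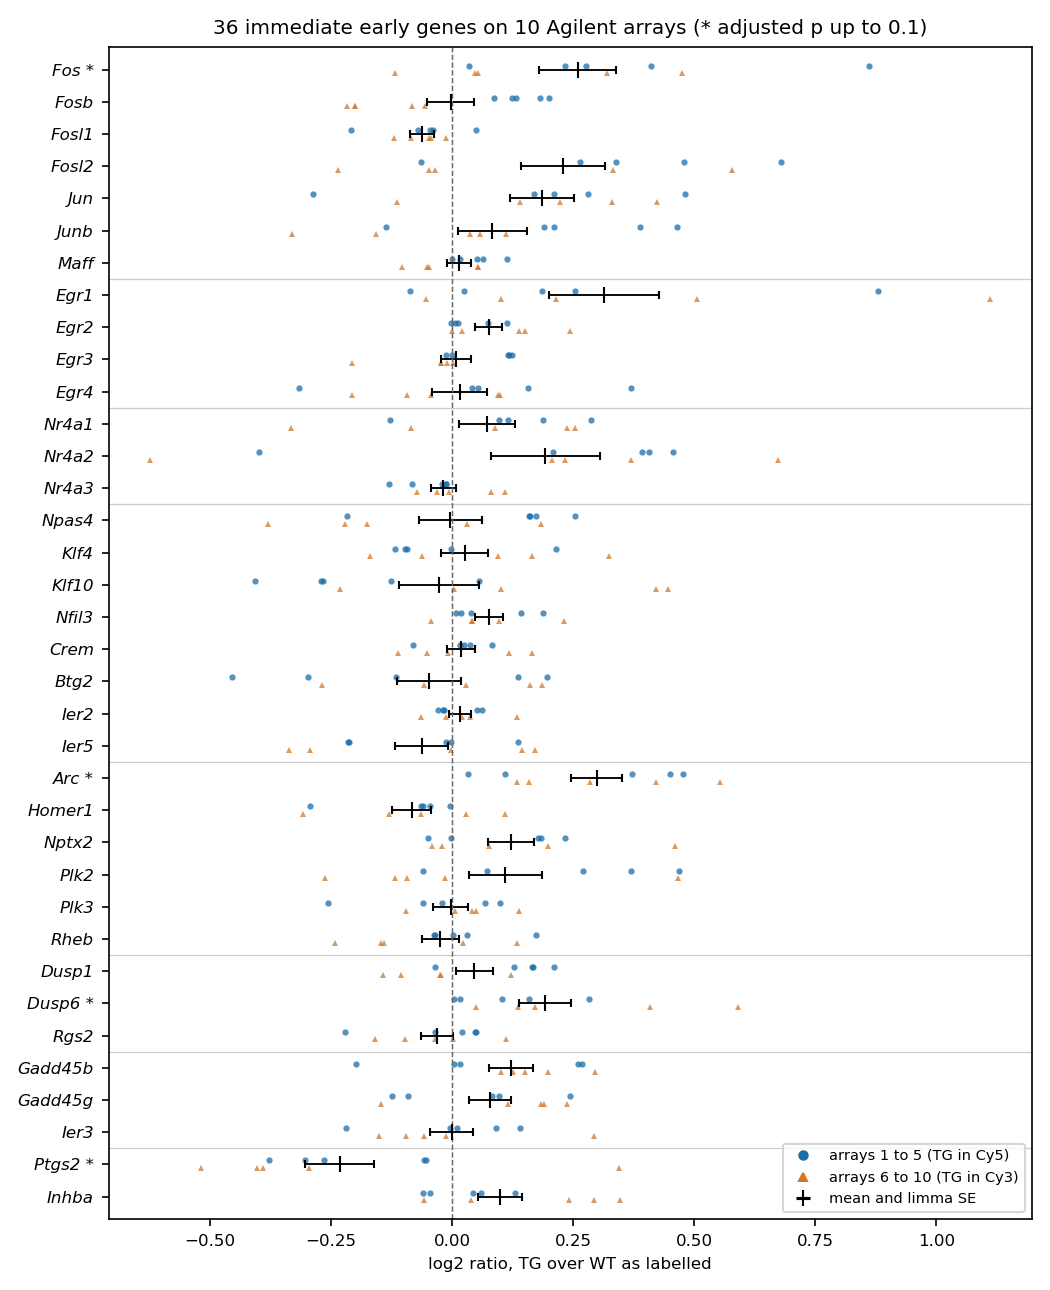
Log2 ratio of TG over WT as labelled for the 36 immediate early genes, grouped by role. Points are single arrays (circles, arrays 1 to 5; triangles, arrays 6 to 10) and bars are the mean with limma's SE. Arc and Dusp6 have all 10 points above 0, Ptgs2 has 9 below 0, and the circles and triangles of Fosb lie on opposite sides of 0.

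Arc, the cytoskeleton-associated protein that drives removal of AMPA receptors from synapses, had the clearest difference. On arrays 1 to 5 its log2 ratios were 0.48, 0.11, 0.37, 0.45 and 0.033, and on arrays 6 to 10 they were 0.16, 0.28, 0.42, 0.55 and 0.13. All 10 arrays were thus on the same side of 0, and the means of both dye orientations were close (0.29 and 0.31). The mean was 0.30 ± 0.053 (SE, n = 10 arrays; limma, FDR 0.0175), a 1.23-fold difference. With 1 value per mouse, TG1 to TG5 had log2 intensities of 8.91, 9.14, 9.25, 9.38 and 8.99, and WT1 and WT3 to WT6 had 8.93, 8.85, 8.78, 8.78 and 8.84. TG1 was below WT1, so the groups overlapped by this pair, and the TG mice spread more (SD 0.19 against 0.064). After the exchange of arrays the WT mice spread more (0.19 against 0.068). The FDR of Arc stayed between 0.0146 and 0.0486 without any single array. It was 0.115 without the mouse WT4, the one mouse whose removal ended the call, and 0.331 in the fit on 1 value per mouse.

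Fos, the AP-1 subunit most used as an activity marker, had log2 ratios of 0.41, 0.28, 0.23, 0.86 and 0.034 on arrays 1 to 5 and of 0.48, 0.047, 0.32, 0.053 and -0.12 on arrays 6 to 10. Arrays 4 and 6, both hybridized with WT5, and array 1 were high, and array 10 was below 0. The mean was 0.26 ± 0.080 (SE, n = 10; limma, FDR 0.0952), close to the limit. By mouse, log2 intensities were between 6.63 and 7.18 in TG (median 6.88) and between 6.53 and 6.76 in WT (median 6.64), and the groups overlapped. The call was kept without array 5, 7 or 10 and was lost without any other single array (FDR up to 0.205). Without 1 mouse it was kept for WT6 alone, and without WT5 the log2 ratio was 0.16 (FDR 0.226). With the scanner software's own ratios it was 0.49 (FDR 0.0974).

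Dusp6, a phosphatase that switches off ERK, had log2 ratios of 0.10, 0.16, 0.016, 0.28 and 0.0040 on arrays 1 to 5 and of 0.59, 0.050, 0.14, 0.41 and 0.17 on arrays 6 to 10. All arrays were above 0, with arrays 6 and 9 the highest and arrays 3 and 5 close to 0. The mean was 0.19 ± 0.054 (SE, n = 10; limma, FDR 0.0741), a 1.14-fold difference. By mouse, log2 intensities were between 9.59 and 9.73 in TG and between 9.34 and 9.57 in WT, and the groups did not overlap. It was the only 1 of the 36 genes (2.78%) without overlap, against 2.12% of all genes. After the exchange of arrays, Dusp6 overlapped and Arc was the 1 gene that did not (2.78%; all genes 1.56%). The call of Dusp6 was kept without array 1, 3, 5 or 7 and lost without any other, and of the mice only WT6 or TG1 could be left out without its loss (FDR up to 0.257).

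Ptgs2, cyclooxygenase 2, which makes prostaglandins and is induced in excitatory neurons, went the other way. Its log2 ratios were -0.30, -0.38, -0.27, -0.054 and -0.059 on arrays 1 to 5 and -0.30, 0.34, -0.52, -0.39 and -0.40 on arrays 6 to 10. Array 7, of WT1 and TG2, was the one array above 0. The mean was -0.23 ± 0.071 (SE, n = 10; limma, FDR 0.0930), and without array 7 it was -0.30 (FDR 0.0164). Its probes gave -0.17 ± 0.080 and -0.29 ± 0.082, both below 0. By mouse, log2 intensities were between 7.23 and 7.53 in TG and between 7.44 and 7.79 in WT, and the groups overlapped. The call was kept without array 4, 5 or 7 and lost without any other single array, and without 1 mouse it was kept for WT1 and TG2 alone (FDR up to 0.345).

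**Figure D3:**
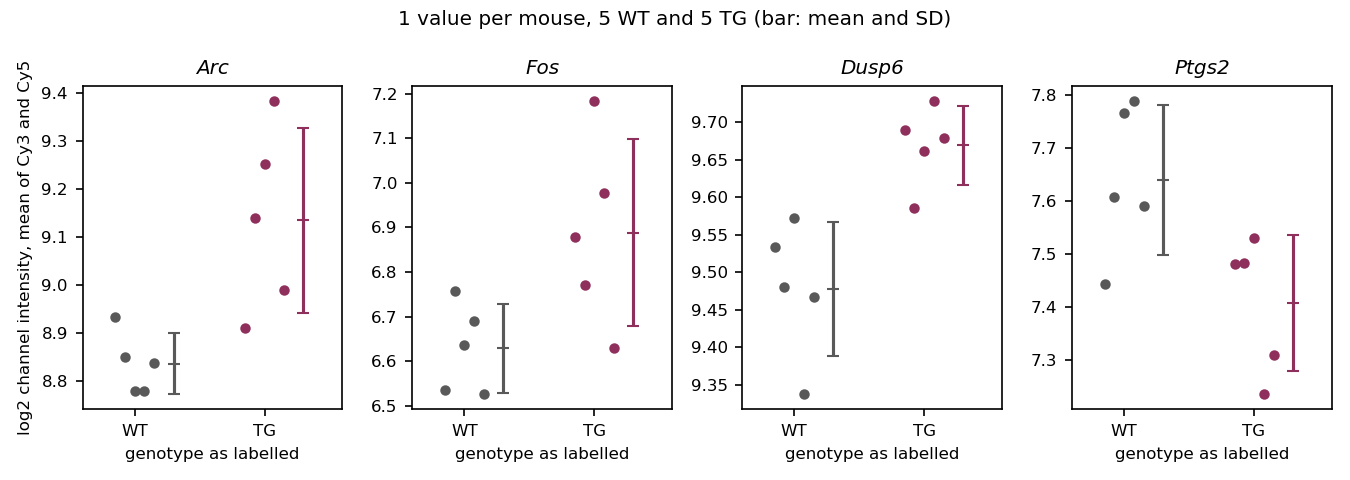
Log2 channel intensity of Arc, Fos, Dusp6 and Ptgs2 for each of 5 WT and 5 TG mice as labelled (points, mean of the mouse's Cy3 and Cy5 channels) with the mean and SD beside them. Only Dusp6 shows no overlap of the groups.

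When the correlation of arrays that share a mouse was put into the fit as a replicate block, Arc (FDR 0.0343) was the only 1 of these genes below the limit, with Dusp6 at 0.124, Fos at 0.147 and Ptgs2 at 0.153. With 1 value per mouse, which leaves differences between arrays in the values, none of the 36 genes passed in limma, and 29 of all genes passed. In that fit 5 of the 36 genes had an unadjusted p under 0.05. The share of all genes at that p was not counted there, so the 5 cannot be set against a background. With dye orientation as a term Ptgs2 was at FDR 0.104 and the other 3 genes were below the limit, and with the scan session of the later scanned arrays 7 and 8 as a term Fos was at 0.111 and the others were below it.

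Among the AP-1 subunits, which pair to form the AP-1 transcription factor, Fosl2 (0.23 ± 0.087, FDR 0.172) and Jun (0.19 ± 0.067, FDR 0.146) had ratios near that of Fos but were not called. Jun was above 0 on 8 arrays and Fosl2 on 6. Junb was at 0.083 ± 0.070, and its probes disagreed, with means of -0.037 and 0.20. Fosl1 was at -0.063 and Maff at 0.014, with a spread over arrays of 0.068 and 0.066 (SD). Their mean log2 intensities, uncorrected for background, were low (6.53 and 6.09, against 8.83 for Jun). Fosb differed between the dye orientations, which cannot be told apart from slide lots. Its log2 ratios were between 0.087 and 0.20 on arrays 1 to 5 and between -0.22 and -0.056 on arrays 6 to 10, so its mean of -0.0032 joins arrays of opposite sign. The dye term of Fosb had an FDR of 0.00326.

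Of the EGR zinc finger factors, Egr1 (also Zif268, required for lasting synaptic plasticity) had a mean of 0.31 ± 0.11, the highest of the 36 as labelled and the lowest after the exchange (-0.31), and was not called (FDR 0.145). Arrays 1 and 9 were at 0.88 and 1.11, array 6 was at 0.51, and the other 7 arrays were between -0.087 and 0.25. Without arrays 1 and 9 the mean was 0.14 ± 0.060 (FDR 0.264, n = 8). Egr2 was at 0.075 ± 0.028 (FDR 0.162), and Egr3 and Egr4 were at 0.0080 and 0.015, so none of the 4 EGR genes was called.

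The NR4A genes encode orphan nuclear receptors that are induced by cAMP and calcium. Nr4a2 was at -0.40 and -0.62 on arrays 1 and 9 and between 0.21 and 0.67 on the other 8, which gave a mean of 0.19 ± 0.11 (FDR 0.406). Without arrays 1 and 9, Nr4a2 was at 0.37 ± 0.050 (limma, FDR 0.0140) and above 0 on all 8 arrays. Nr4a1 was at 0.072 with all arrays and at 0.15 ± 0.041 (FDR 0.0981) without both, when 4.74% of all genes were called. Nr4a3 was at -0.018 with all arrays. Leaving out both arrays was chosen after their values were seen.

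Arrays 1 and 9 stood apart in all genes. Their ratios correlated by 0.747 over all genes and had the highest spread (SD over genes 0.269 and 0.338, against 0.131 to 0.216 on the other arrays). They share TG4 as labelled and WT5 after the exchange. Neuronal markers differed on them in both directions. Slc17a7, the glutamate transporter of excitatory terminals, was at -2.02 and -1.75 on these arrays and between -0.33 and 0.41 on the others, and Snap25, a synaptic vesicle fusion protein, at -1.34 and -1.49. Rbfox3, a neuronal splicing factor, was at 0.60 and 0.85, its highest values, whereas Camk2a (-0.064 and 0.10) and Neurod6 (-0.20 and 0.037) lay within the range of the other arrays. The mean of the 5 neuronal markers was -0.604 and -0.452 there and between -0.152 and 0.115 on the other arrays, and was carried by Slc17a7 and Snap25. All 5 were well above background in all 20 channels, and their mean log2 intensity was 10.4 in each WT mouse and between 9.9 and 10.5 in TG mice. Their part in the ratios of Egr1 and the NR4A genes was not tested.

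**Figure D4:**
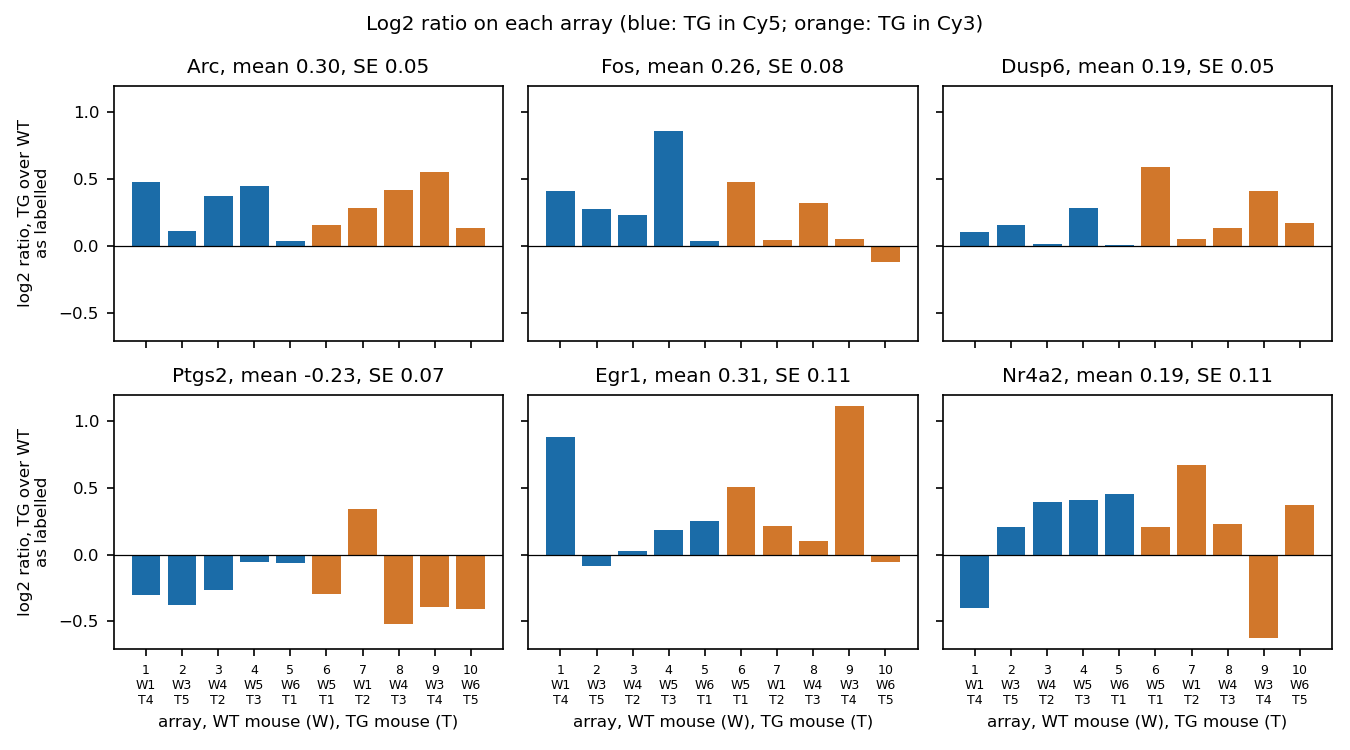
Log2 ratio of TG over WT as labelled on each of 10 arrays (bars) for the called genes Arc, Fos, Dusp6 and Ptgs2 and for Egr1 and Nr4a2, with the WT and TG mouse of each array under it. Arrays 1 and 9, which share TG4 as labelled, are the highest for Egr1 (0.88 and 1.11) and the lowest for Nr4a2 (-0.40 and -0.62).

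Of the 8 other transcription regulators none was called. Nfil3, a bZIP repressor, was at 0.076 ± 0.029 (FDR 0.170) and above 0 on 9 arrays. One probe of Nfil3 was at 0.13 ± 0.039 (FDR over probes 0.0906) and the other at 0.020 ± 0.028 (FDR over probes 0.796). Npas4, a neuron-restricted factor that adjusts inhibitory synapses, was at -0.0036 ± 0.064 and was below 0 on array 4 (-0.22) and on arrays 6, 7 and 8 (-0.22, -0.18 and -0.38). Klf4, Klf10, Crem, Btg2, Ier2 and Ier5 had means between -0.063 and 0.025. Klf10 and Btg2 varied most among them over arrays (SD 0.29 and 0.23), and Ier2 varied least of all 36 genes (SD 0.057). The value of Ier2 is an average of 2 probes that had opposite signs on every array except array 4. Their means were 0.076 ± 0.053 and -0.044 ± 0.045, so the small spread is not that of either probe.

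Besides Arc, none of the 6 synaptic effectors was called. Nptx2, a pentraxin that clusters AMPA receptors, was at 0.12 ± 0.048 (FDR 0.184). Plk2, a kinase that weakens overactive synapses, was at 0.11 ± 0.075, with arrays 1 and 9 at 0.47 each and the others between -0.26 and 0.37. Homer1, a scaffold of metabotropic glutamate receptors with a short form induced by activity, was at -0.084 ± 0.040 (FDR 0.287). Its probes described as transcript variant S were at -0.016 ± 0.046 and -0.040 ± 0.039, and the probe described as transcript variant d at -0.20 ± 0.069 (FDR over probes 0.145). The difference between these probes was not tested. Plk3 and Rheb were at -0.0034 and -0.024.

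Of the signalling inhibitors, Dusp1, which inactivates several MAP kinases, was at 0.046 ± 0.039 and Rgs2, which shortens G protein signals, at -0.032 ± 0.033, with probes of opposite sign (-0.11 and 0.043). Gadd45b and Gadd45g, which take part in the demethylation of DNA and in stress responses, were at 0.12 ± 0.045 (FDR 0.156; above 0 on 9 arrays) and 0.078 ± 0.044, and Ier3 at -0.00091. One probe of Gadd45b was at 0.16 ± 0.038 (FDR over probes 0.0498) and the other at 0.085 ± 0.065. Inhba, the activin subunit secreted by active neurons, was at 0.099 ± 0.044 (FDR 0.255).

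The co-variation of the genes over arrays was weak. The median Pearson correlation of the 630 pairs was 0.0867 over 10 arrays, and that of all gene pairs was -0.001. After centring the ratios within each dye orientation these medians were 0.106 and 0.004, and without arrays 1 and 9 they were 0.0832 and -0.002. Correlations of at least 0.5 were found for 15.9% of the pairs (all gene pairs 12.8%) and correlations of at most -0.5 for 9.21% (12.1%). Arrays share mice, and no test was made. With median centring of arrays in place of loess the median was 0.223, against 0.013 for all gene pairs.

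The genes did not move as 1 block. Rgs2 (r = 0.855), Ier3 (0.787), Fos (0.769), Egr4 (0.705) and Nfil3 (0.687) followed the mean standardized ratio of the other genes most, and Nr4a3 (-0.417), Nr4a2 (-0.311) and Homer1 (-0.297) ran against it. Fos was most like Nfil3 (0.757), Egr4 (0.696) and Ier3 (0.672). These values were 0.804, 0.675 and 0.654 without arrays 1 and 9. Arc was most like Gadd45b (0.745; 0.727 without both arrays), and its correlation with Fos was 0.354. Nr4a2 and Homer1 had the highest correlation of any pair (0.919), which was 0.628 without both arrays. Egr1 and Nr4a2 were at -0.840 with all arrays and at 0.0652 without arrays 1 and 9, so that relation rests on these arrays. By array, between 14 and 26 of the 36 genes had a ratio above 0, and the fewest and the most were on array 10 (WT6, TG5) and array 4 (WT5, TG3).

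**Figure D5:**
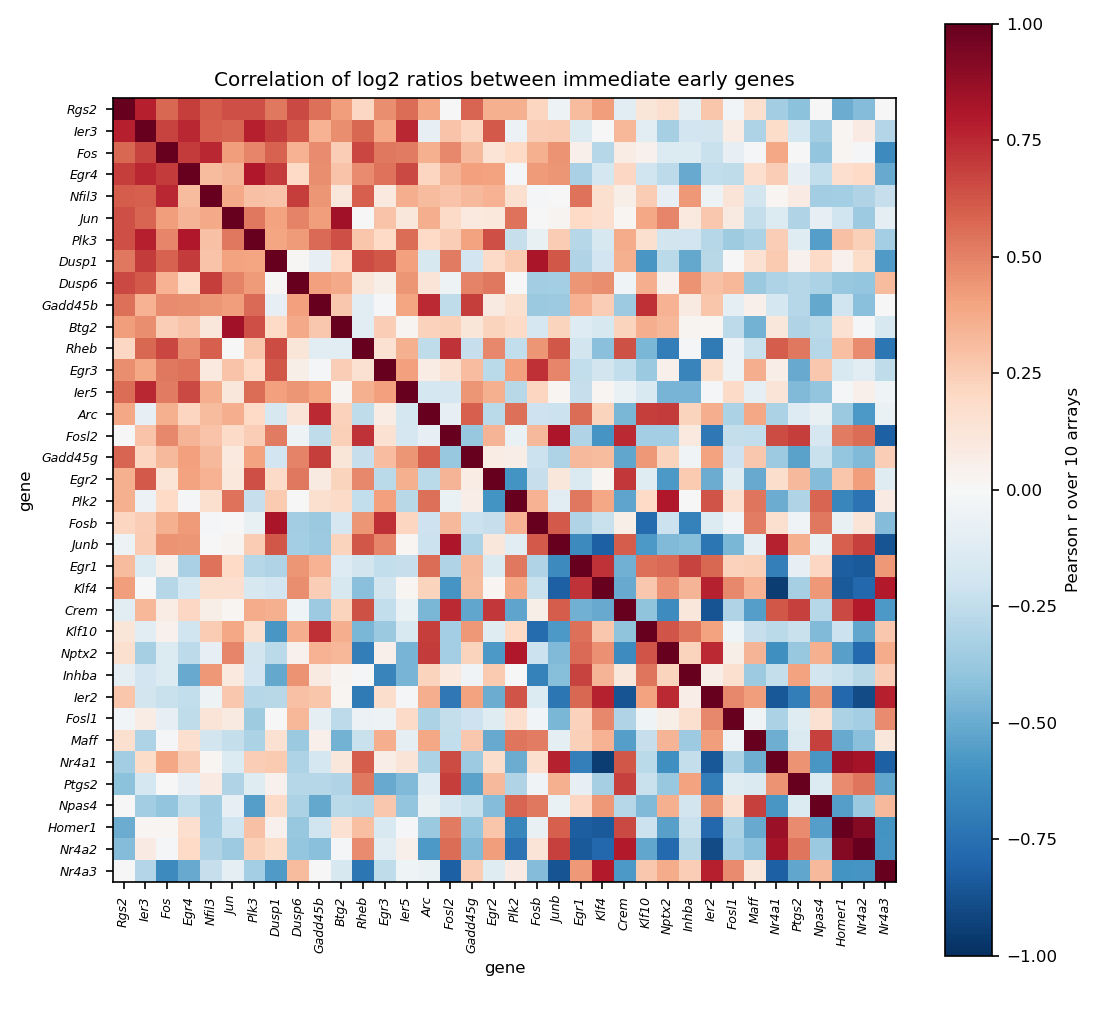
Pearson correlation over 10 arrays of the log2 ratios of each pair of the 36 immediate early genes (color scale from -1 to 1), ordered by the correlation of a gene with the mean of the others. Rgs2, Ier3, Fos, Egr4 and Nfil3 form the upper left, and Nr4a1, Ptgs2, Npas4, Homer1, Nr4a2 and Nr4a3 the lower right.

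The 10 genes outside the list most like the mean of the immediate early genes had correlations of up to 0.935 over 10 arrays. They were picked as the highest of all genes outside the list, over arrays that share mice. Such a search can give values this high by itself, and shared regulation was not tested. The named ones were Arl8a (0.931), Dnajb3 (0.920), Aldh1a3 (0.911), Zmat3 (0.903), Impdh1 and Atp6v1d (both 0.90). Of these named genes, Impdh1, an enzyme of guanine nucleotide synthesis, was called (0.16, FDR 0.0839), and 8.19% of all genes were called.

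Other genes of the pathway were read from lists of slower or further activity-regulated genes and of the signalling that leads to the nucleus. Of 52 further activity-regulated genes with a probe, 5 were called (9.62%; all genes 8.19%), 4 lower and 1 higher in TG as labelled (all genes 4.14% and 4.05%), and the median log2 ratio was 0.014. Bdnf, the neurotrophin induced by activity, was at -0.26 ± 0.048 (FDR 0.0203) and below 0 on 9 arrays. Nrn1, a neurite growth factor, was at -0.20 ± 0.036 (FDR 0.0197), Sgk1, a glucocorticoid-induced kinase, at -0.25 ± 0.050 (FDR 0.0286) and Dusp14, a MAP kinase phosphatase, at -0.35 ± 0.071 (FDR 0.0276). Npy, a peptide of interneurons, was at 0.46 ± 0.12 (FDR 0.0594). Arc and Bdnf were thus called in opposite directions. Of 25 signalling genes, 2 were called (8%; all genes 8.19%), both higher. Map2k2, a kinase above ERK, was at 0.20 ± 0.050 (FDR 0.0511) and Srf, the serum response factor, at 0.14 ± 0.043 (FDR 0.0986).

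Cell markers were measured to describe the tissue. All 16 measured markers of neurons, dentate granule cells and CA pyramidal cells were well above background in all 20 channels. Of all 47 measured markers, which include those of choroid plexus, striatum, thalamus, neocortex, blood and vascular cells, 45 were well above background in all channels and 5 were called, against 8.19% of all genes. These were Bok (-0.42), C1ql2 (-0.30), Cldn5 (-0.25), Alas2 (-0.13) and Calb1 (0.14), with signs as labelled. For Bok the study gives the opposite direction, on Agilent, on its other platforms and by qRT-PCR. The mean of the choroid plexus markers ranged from -0.340 to 0.417 over arrays and that of blood from -0.618 to 0.292. Over arrays, the lists correlated with the mean of the immediate early genes by -0.505 (thalamus), 0.427 (dentate granule cells), 0.40 (neocortex), 0.34 (blood), 0.239 (vascular cells), 0.133 (choroid plexus), -0.117 (neurons), 0.0855 (striatum) and -0.018 (CA pyramidal cells). Their part in the ratios was not tested.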

How the data were processed

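Agilent arrays were analysed for 36 immediate early genes, and ABI arrays for the label check. The deposited Agilent values are spot intensities of both dyes from Feature Extraction 8.5.1.1, not normalized. Log10 ratios, corrected by that software for background and dye, were deposited beside them. The ABI intensities were deposited as raw signal. The 80 per-sample columns of ILL were not used, since their names could not be paired with a mouse, and the AFF and LGTC samples were not analysed here. Probes were named by RefSeq accession (22072 of 41174) or by the symbol in their description (2156).

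Mean signals, uncorrected for background, underwent loess within each array with controls at weight 0 and were averaged by probe and by gene on the log2 scale. An intercept was fitted with limma 3.58.1 (R 4.3.3) and p values were adjusted over 34526 genes (Benjamini and Hochberg), with an FDR limit of 0.1 after the study's methods. The 10 ratios enter as separate observations although each mouse is on 2 arrays, so p values cover the spread between arrays. Mouse values are the mean of the Cy3 and Cy5 channels after Aquantile. Genes past the limit are given in full, others by value or range. Of the other lists, at most 6 past the limit are named. The members and lists were chosen with earlier results of these data known. Alternatives covered background correction, normalization, spot summary, filter, probe choice, limit, model, replicate block, mouse values and leaving out arrays or mice. The number of arrays limits the precision.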

Additional observations from a re-analysis of the deposited data

Results flagged for a closer look

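Of 72 groups of 5 arrays (36 genes in each dye orientation), 5 held an array far from the other 4, and chance gives such a gap in about 1 in 20 groups. These were Nr4a2 (-0.40) and Homer1 (-0.29), both on array 1, Npas4 on array 4 (-0.22), and Egr3 (-0.21) and Ptgs2 (0.34), both on array 7. For Nr4a2 and Homer1, array 9 (-0.62 and -0.31) was also the lowest of its orientation, without such a gap.

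The log2 ratios of arrays 1 to 5 and arrays 6 to 10 differed for 2 genes by limma's dye term adjusted over all genes. Fosb (FDR 0.00326) had means of 0.14 and -0.15, and Dusp1 (FDR 0.0998) had means of 0.13 and -0.035. Dye and slide lot cannot be told apart for either.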

How the results depend on the processing

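The count of called immediate early genes, 4 as reported, was 2 with median centring in place of loess, 1 at an FDR of 0.05, 1 with the replicate block and 0 with 1 value per mouse. Of the alternatives chosen after seeing the data, it was 1 with the replicate block after the exchange of arrays and 2 without arrays 7 and 8. It was 0 with 1 value per mouse after the exchange, when 4 genes had an unadjusted p under 0.05 in limma and the signs turned (Arc -0.30, Fos -0.26, Dusp6 -0.19 and Ptgs2 0.23). Leaving out 1 array or mouse gave 0 to 6, with 0 without the mouse WT4 (10 at an unadjusted p under 0.05). Of the other activity-regulated genes, 5 as reported, 3 were called with median centring, 8 among probes well above background, 9 with the channel model, 9 with dye as a term and 0 with 1 value per mouse under either assignment (6 at an unadjusted p under 0.05 in each). Leaving out 1 array or mouse gave 0 to 8. For the unadjusted p in these alternatives the share of all genes was not counted, so those counts have no background. The number called over all genes moved too. Of 34526 genes, 2827 were called as reported, 1163 with median centring, 1254 at an FDR of 0.05 and 3494 with the channel model or dye as a term. It was 1471 with the replicate block (560 after the exchange), 29 with 1 value per mouse (11 after the exchange) and 2085 without arrays 7 and 8. Among probes well above background it was 3311 of 25293. Leaving out 1 array or mouse gave 336 (without WT4) to 3156 (without array 5). The list counts are to be read beside these. The median log2 ratio of the members was 0.022 as reported and between 0.018 and 0.066 in the alternatives. Their median correlation was 0.0867 as reported and between 0.0242 and 0.223. Both moved by less than an SD, over arrays for the ratio (0.0497) and over members for the correlation (0.153). Each SD is larger than the reported value, so this limit cannot show that the values are stable. The ABI difference of Tmem254a was 1.82 after quantile normalization. The cause of the other changes was not tested. Of the 51 probes of the 36 genes, 48 were well above background in all 20 channels, and those that were not belong to Crem, Homer1 and Ier2.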
